A study of Mus musculus with 31 samples.

Results

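RM-9 tumors were profiled 3 h after a single local dose of 15 Gy and compared with RM-9 tumors that were not irradiated, across all genes. The libraries were chosen by their labels alone, 4 labelled RT 3h and 4 labelled Control, which made 8 of the 31 libraries of the series. RM-9 is a mouse prostate cancer cell line, and each library came from the tumor of 1 mouse. In both groups, male wild-type C57BL/6 mice (C57BL/6J in the study's methods, bought at 6 to 7 weeks of age) carried a tumor grown under the skin of the right hind leg from injected RM-9 cells, without any other treatment. The tumors had reached about 8 mm when RT (radiotherapy) was given. The control mice received no treatment, and their labels carried the same 3 h time point as the RT mice. Since RM-9 is 1 cell line, the mice were replicates of the host and of the tumor, not of the cancer. The spread between mice was estimated together with 4 RM-9 libraries at 12 h and 3 at 24 h after RT. The same contrast in MC-38, a mouse colon cancer line, had 4 control mice and 4 RT 3 h mice.

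Ionizing radiation breaks DNA, and the kinases that sense the breaks stabilize the transcription factor p53. Within hours p53 raises the RNA of genes that halt the cell cycle, repair DNA, promote cell death and, through Mdm2, limit p53 itself. Arrest before mitosis is commonly accompanied by a loss of the RNAs of mitotic genes, many of which share CCAAT boxes and the cell cycle homology element TTTGAA in their promoters.

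The level of a gene is given in TPM, a unit in which every library adds up to the same total and levels are scaled by gene length. The depth, in M reads per library, was 23.01 to 25.1 in the control mice and 26.2 to 29.4 in the RT 3 h mice, without overlap (exact two-sided permutation p = 0.0286 over 70 assignments, the smallest that 4 mice against 4 can give). Its part in the results was not tested. The labelled tissue, an adenocarcinoma of epithelial origin, was checked against 12 epithelial markers. The keratins Krt8, at 637 to 980 TPM over the 8 mice, and Krt18, at 189.6 to 325 TPM, were abundant. Krt18 was lower in all 4 RT mice than in any control without passing the threshold (log2 fold change -0.48 ± 0.14 (SE), adjusted p = 0.115). The adhesion molecule Epcam lay at 0.892 to 1.92 TPM and the cadherin Cdh1 at 0.342 to 0.687 TPM, and 1 marker, the claudin Cldn7, was at 0 in all 8 mice. The summed epithelial markers were 1156 to 1397 TPM in control and 904 to 1242 TPM in RT 3 h mice. Markers of skeletal muscle had the largest median difference of the 13 marker lists (log2 fold change -4.38). The 12 muscle markers summed to 2718, 1593, 283 and 1287 TPM in control mice 1 to 4 and to 32.9, 1071, 4.16 and 6.89 TPM in RT 3 h mice 1 to 4. RT mouse 2 was thus the only irradiated tumor with muscle RNA at the level of the controls. No muscle gene passed the threshold, and the part of muscle RNA in the results below was not tested.

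At 3 h, 28 genes were higher and 4 lower in the irradiated tumors, out of 14013 tested (0.2% and 0.0285%, and 0.228% in either direction). A gene was counted when its p from limma, adjusted over all genes tested by the Benjamini-Hochberg method, was under 0.05. The rises spanned log2 fold changes of 0.49 to 1.72, and the falls -0.54 to -1.17, beside a median of 0.056 over all genes. In all 32 genes the 4 RT mice lay beyond the 4 control mice. Over all genes tested, such a separation was met by 9.88% upwards and 2.87% downwards. At an unadjusted p under 0.05, 2205 genes were higher (15.7%) and 855 lower (6.1%), 21.8% in all. Under median-ratio scaling, which put the median of all genes at -0.0065, those counts were 2020 (14.4%) and 1976 (14.1%), so the excess of rises was not kept. Exon bases were shared with another annotated gene in 9 of the 32 genes, namely Homer3, 0610010K14Rik, Fbxl20, Gpr65, Rb1, Cdkn1a, Tmem63b, Notch3 and Nav2, and how reads were divided between such genes is not given in the sources used here.

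**Figure D1:**
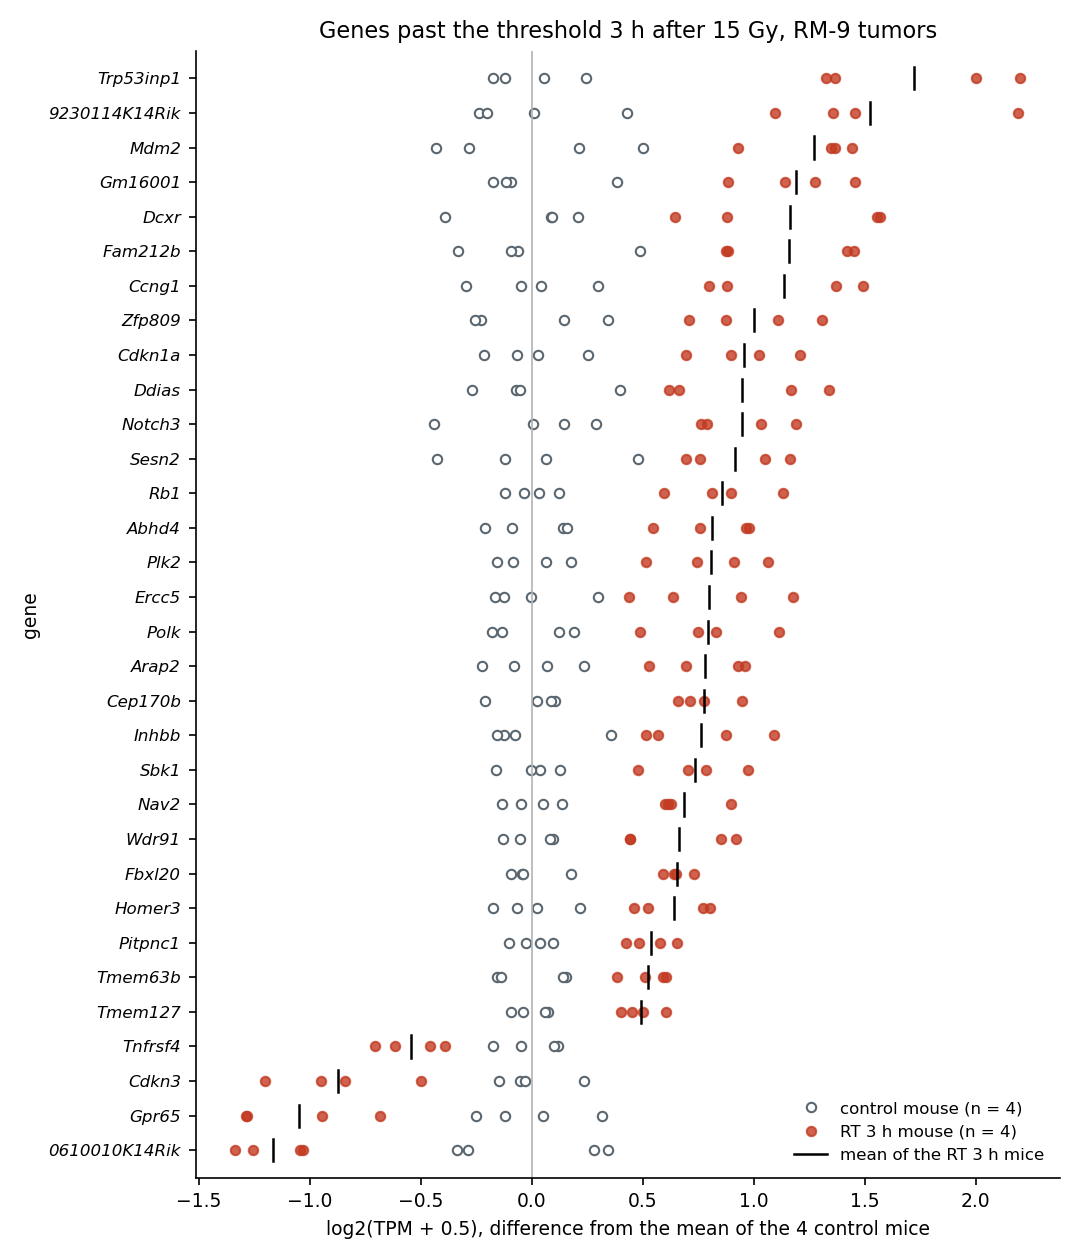
Each row is 1 of the 32 genes past the threshold, and the horizontal axis gives log2(TPM + 0.5) as the difference from the mean of the 4 control mice. Open points are control mice, filled points are RT 3 h mice and the bar is the mean of the 4 RT 3 h mice. Trp53inp1 had the largest rise, and no filled point overlaps an open point of the same gene.

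The number of genes past the threshold rested on the shared estimate of the spread and on single mice. With only the 8 libraries of the 2 groups in the fit, limma passed 0 genes (smallest adjusted p 0.0863), while 2521 genes were higher and 1026 lower at an unadjusted p under 0.05, all 32 named here among them. Without control mouse 3, 137 genes were higher and 47 lower. Without control mouse 1, 2 or 4, the counts were 3 and 0, 1 and 0, and 16 and 0. Without RT mouse 1, 2, 3 or 4, they were 14 and 1, 1 and 0, 39 and 1, and 3 and 2. Trp53inp1 passed in all 8 of these fits and Cdkn1a in 6.

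**Figure D2:**
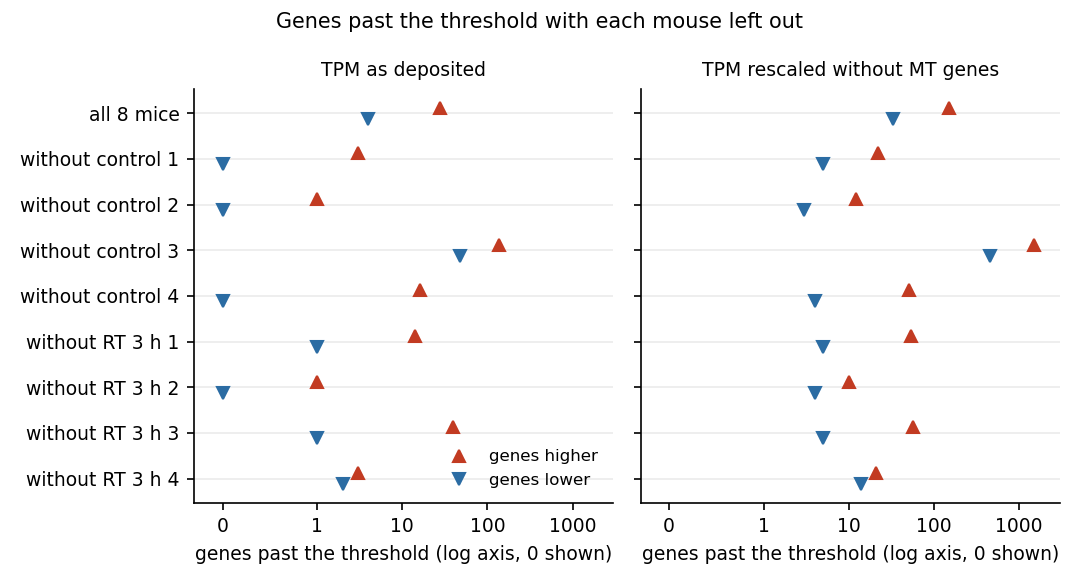
Genes higher (upward triangles) and lower (downward triangles) past the threshold, on a log axis that also shows 0, with all 8 mice and with each mouse left out. TPM as deposited is on the left and TPM rescaled without mitochondrial genes on the right. In both, the count was highest without control mouse 3, with 137 genes higher as deposited and 1498 after rescaling.

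The p53 targets made up 8 of the 28 rises, the most of any list. Trp53inp1, a p53-inducible nuclear protein of the death and autophagy response, was at 3.06, 3.19, 3.67 and 4.25 TPM in the 4 control mice. In the 4 RT 3 h mice it was at 9.85, 15.6, 9.55 and 17.97 TPM (log2 fold change 1.72 ± 0.18 (SE), adjusted p = 0.00163). Every irradiated tumor exceeded every control, RT mice 2 and 4 by the most. Cdkn1a, which encodes the cyclin-dependent kinase inhibitor p21, was at 116, 83.6, 92.7 and 98.8 TPM in control and 181, 225, 157 and 198 TPM in RT 3 h mice (log2 fold change 0.96 ± 0.13 (SE), adjusted p = 0.0106). Mdm2, the ubiquitin ligase that degrades p53, was the most abundant of these genes. It was at 512, 462, 880.1 and 721 TPM in control and 1606, 1586, 1184 and 1692 TPM in RT 3 h mice (log2 fold change 1.27 ± 0.19 (SE), adjusted p = 0.015). Control mice 3 and 4 had more Mdm2 RNA than control mice 1 and 2, yet less than any irradiated tumor. Cyclin G1, Ccng1, rose from 66.6, 62.6, 52.6 and 79.8 TPM to 119.6, 168, 113 and 183 TPM (log2 fold change 1.13 ± 0.18 (SE), adjusted p = 0.0277). RT mice 2 and 4 were again the highest, as for Trp53inp1 and Cdkn1a.

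The promoters of 3 of these genes are shown because each holds a match to the p53 half-site within 250 bases before to 50 bases after the start of the gene (RefSeq, GRCm38.p6). The sequences are given in the direction of transcription, for Mdm2 from chr10:117710709-117711008, minus strand, for Cdkn1a from chr17:29090729-29091028, plus strand and for Ccng1 from chr11:40755237-40755536, minus strand. For Cdkn1a, which has 2 starts in this table, the window with the most matches is shown. Capitals mark matches to the p53 half-site, searched on both strands.
Mdm2: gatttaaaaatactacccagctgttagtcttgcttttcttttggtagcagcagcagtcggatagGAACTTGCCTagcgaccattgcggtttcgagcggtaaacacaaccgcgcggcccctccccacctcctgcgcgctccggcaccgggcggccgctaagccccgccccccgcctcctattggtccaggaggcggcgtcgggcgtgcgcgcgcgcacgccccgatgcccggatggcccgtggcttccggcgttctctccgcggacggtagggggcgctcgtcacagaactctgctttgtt
Cdkn1a: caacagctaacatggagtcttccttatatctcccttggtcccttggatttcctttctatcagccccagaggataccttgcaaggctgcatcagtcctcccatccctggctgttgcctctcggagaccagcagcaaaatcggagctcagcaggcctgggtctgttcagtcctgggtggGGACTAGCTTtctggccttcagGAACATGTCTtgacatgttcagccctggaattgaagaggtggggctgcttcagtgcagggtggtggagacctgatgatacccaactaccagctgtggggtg
Ccng1: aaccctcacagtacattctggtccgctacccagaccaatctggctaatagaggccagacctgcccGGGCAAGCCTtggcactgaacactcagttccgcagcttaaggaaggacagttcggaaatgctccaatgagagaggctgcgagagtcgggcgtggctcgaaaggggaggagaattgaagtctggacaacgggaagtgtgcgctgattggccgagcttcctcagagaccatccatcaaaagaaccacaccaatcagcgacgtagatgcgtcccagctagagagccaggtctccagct
A half-site was found in the window of 12 of the 31 p53 list members for which a window was given (38.7%) and of 5 of the 23 matched genes that rose (21.7%), against 8.36% of all 32851 promoters and 9.55% of the 27025 genes with a promoter. Such a match is a description of the letters, and whether p53 binds there was not tested. In many target genes the full p53 element lies outside this window.

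The other p53 targets past the threshold act in arrest, metabolism and repair. Sesn2, a stress-inducible inhibitor of mTORC1 signaling, was at 7.23, 5.75, 11.2 and 8.29 TPM in control and 13.7, 18.3, 13.1 and 16.9 TPM in RT 3 h mice (log2 fold change 0.92 ± 0.16 (SE), adjusted p = 0.0331). Plk2, a polo-like kinase, was at 9.05, 7.07, 7.47 and 8.34 TPM and 13.6, 17.2, 11.6 and 15.4 TPM (log2 fold change 0.81 ± 0.15 (SE), adjusted p = 0.0375). Both genes were highest in RT mouse 2. Polk, a DNA polymerase that copies past damaged bases, rose from 5.29 ± 0.735 (SD, n = 4) to 9.603 ± 1.82 TPM (log2 fold change 0.79 ± 0.15 (SE), adjusted p = 0.0384). Ercc5, the XPG endonuclease of nucleotide excision repair, rose from 9.56 ± 1.53 to 17.2 ± 3.99 TPM (log2 fold change 0.80 ± 0.15 (SE), adjusted p = 0.0443).

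Of 40 tested members of a list of 41 p53 targets, 8 rose and 0 fell, against 0.2% and 0.0285% of all genes. A log2 fold change above 0 was found in 37, against 58.6% of all genes. The median of the list was 0.43, beside 0.056 over all genes, and 24 members were higher at an unadjusted p under 0.05, against 15.7% of all genes. Under median-ratio scaling the median was 0.36 and 25 were higher at that level. Leaving out single mice moved the list median between 0.36 and 0.48. Trp53cor1, a noncoding RNA, was too low to be tested. After TPM was rescaled without mitochondrial genes, 14 members rose past the threshold, against 0.985% of all genes. The 6 added were Apaf1, Eda2r, Slc19a2, Tnfrsf10b, Ei24 and Phlda3. Apaf1, the scaffold of the apoptosome, was at 6.27, 6.28, 7.15 and 8.01 TPM in control and 10.2, 12.00, 9.87 and 15.1 TPM in RT 3 h mice, which did not overlap (rescaled log2 fold change 0.73 ± 0.13 (SE), adjusted p = 0.0202). Its adjusted p as deposited was 0.0518, as was that of Eda2r, a receptor of the tumor necrosis factor family. Members that did not pass included well-known targets. Bax, a pore former of the mitochondrial outer membrane, was at 162 ± 26.6 against 167 ± 23.7 TPM (log2 fold change 0.05, adjusted p = 0.823). Bbc3, which encodes the killer protein PUMA, had a log2 fold change of 0.13 (adjusted p = 0.551), and Trp53 itself had -0.03 (adjusted p = 0.859). Gdf15, a secreted stress cytokine, was higher in all 4 RT mice but missed the threshold, with 0.556, 0.515, 0.933 and 0.505 TPM in control and 1.31, 1.97, 1.72 and 1.91 TPM in RT 3 h mice (adjusted p = 0.0811).

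**Figure D3:**
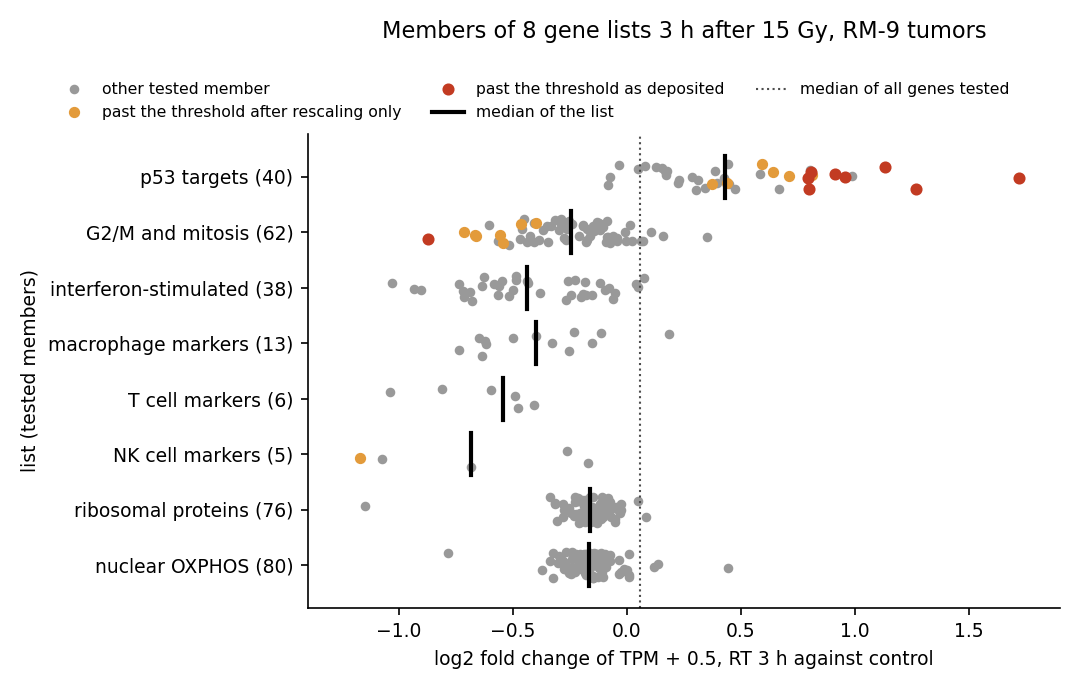
Each point is the log2 fold change of 1 tested member of 8 gene lists, RT 3 h against control in RM-9 tumors. Red points passed the threshold as deposited and orange points after rescaling only, thick bars are list medians and the dotted line is the median of all genes tested, 0.056. The p53 targets lie mostly to its right and the G2/M, interferon-stimulated and immune marker lists mostly to its left, and 2 members lie outside the axis.

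Rises outside the p53 list included genes of the cell cycle and the DNA damage response. Rb1, the retinoblastoma protein that restrains E2F factors, was at 2.67, 2.87, 3.02 and 3.26 TPM in control and 5.92, 5.55, 4.71 and 7.05 TPM in RT 3 h mice (log2 fold change 0.86 ± 0.14 (SE), adjusted p = 0.0277). Ddias, a suppressor of apoptosis after DNA damage, was at 4.701, 4.03, 4.76 and 6.699 TPM and 8.15, 11.8, 7.89 and 13.3 TPM (log2 fold change 0.95 ± 0.17 (SE), adjusted p = 0.0359). The irradiated tumors had more of both RNAs in all 4 mice. Cep170b, a paralog of a centrosomal protein, rose from 15.6 ± 1.56 to 27.1 ± 2.43 TPM (adjusted p = 0.015).

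Another 3 rises concern signaling and differentiation. Notch3, a receptor of the Notch family, was at 0.791, 0.447, 1.07 and 0.9195 TPM in control and 1.68, 2.13, 1.72 and 2.43 TPM in RT 3 h mice (log2 fold change 0.94 ± 0.16 (SE), adjusted p = 0.0323). Inhbb, the beta B subunit of activin and inhibin, was at 3.05, 3.18, 4.46 and 2.97 TPM and 5.23, 5.03, 6.603 and 7.75 TPM (log2 fold change 0.76 ± 0.14 (SE), adjusted p = 0.0438). Control mouse 3 was the highest control for both genes and still below the lowest irradiated tumor. Fam212b, an inhibitor of the kinase Pak4, rose from 1.59 ± 0.539 to 4.14 ± 1.02 TPM (log2 fold change 1.16 ± 0.18 (SE), adjusted p = 0.0259).

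Other rises included metabolic and membrane genes. Dcxr, a reductase of dicarbonyls and xylulose, was at 11.9, 11.9, 8.39 and 12.98 TPM in control and 17.7, 34.01, 20.95 and 33.7 TPM in RT 3 h mice (log2 fold change 1.16 ± 0.20 (SE), adjusted p = 0.0305), highest in RT mice 2 and 4. Abhd4, a lipid hydrolase, was at 19.2, 16.3, 14.9 and 19.4 TPM and 25.6, 34.3, 29.7 and 34.7 TPM (log2 fold change 0.81 ± 0.12 (SE), adjusted p = 0.015). The phosphatidylinositol transfer protein Pitpnc1, the endosome regulator Wdr91, the cation channel Tmem63b and the membrane protein Tmem127 rose by log2 fold changes of 0.54, 0.66, 0.52 and 0.49. The scaffold protein Homer3 (0.64), the Arf regulator Arap2 (0.78), the neuron navigator Nav2 (0.68), the kinase Sbk1 (0.74) and the F-box protein Fbxl20 (0.65) were also higher on the log2 scale. Zfp809, a zinc finger protein that silences endogenous retroviruses, rose from 2.25 ± 0.563 to 4.98 ± 0.996 TPM (adjusted p = 0.0476, the closest to the threshold). The uncharacterized transcripts 9230114K14Rik and Gm16001 rose by 1.52 and 1.19 on the log2 scale from control levels under 1 TPM.

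Of 62 tested genes of G2/M and mitosis, 1 fell as deposited and 8 fell after rescaling, against 0.0285% and 0.215% of all genes. Cdkn3, a phosphatase of cyclin-dependent kinases that peaks with mitosis, was at 8.73, 8.87, 8.13 and 10.8 TPM in control and 3.66, 4.85, 4.46 and 6.28 TPM in RT 3 h mice (log2 fold change -0.87 ± 0.15 (SE), adjusted p = 0.0305). The lowest control mouse was above the highest irradiated tumor. Cdc20, which activates the anaphase-promoting complex, was at 47.7, 37.8, 32.7 and 54.4 TPM and 23.4, 25.9, 22.8 and 30.9 TPM (rescaled log2 fold change -0.72 ± 0.13 (SE), adjusted p = 0.0271). Plk1, the kinase that drives mitotic entry, was at 40.7, 33.5, 30.2 and 43.99 TPM and 21.3, 23.1, 19.5 and 29.2 TPM (rescaled log2 fold change -0.67 ± 0.13 (SE), adjusted p = 0.0342). These genes did not overlap between the groups, and control mouse 3 was the lowest control for each. The other 5 that fell after rescaling were Fam64a, Sapcd2, cyclin B2 (Ccnb2, 32.4 ± 3.94 against 21.9 ± 3.61 TPM), the Aurora kinase Aurka and the centromeric histone Cenpa. In the whole list, 55 had a log2 fold change below 0, against 41.4% of all genes, and the median was -0.25. At an unadjusted p under 0.05, 26 were lower and 1, Ckap2, higher, against 6.1% and 15.7% of all genes. Under median-ratio scaling 38 were lower at that level, against 14.1% of all genes. From coverage 21 fell past the threshold, against 1.21% of all genes. With single mice left out, the median lay between -0.36 and -0.16. Cdk1, the kinase partner of the mitotic cyclins, was at 75.8 ± 8.79 against 82.3 ± 16.5 TPM (log2 fold change 0.10, adjusted p = 0.761), and Aurkb at 24.1 ± 3.31 against 24.6 ± 4.303 TPM (0.02), but from coverage they were -0.20 and -0.06, where the list median was -0.30. Of 50 DNA replication genes, 0 passed and the median was -0.02, and of 25 tested clustered histone genes 0 passed with a median of -0.02. In both lists, 0 also passed after rescaling.

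Promoters of 4 of the mitotic genes that fell are shown, since the element TTTGAA and the box CCAAT occur in each of them. The windows run from 250 bases before to 50 bases after the start (RefSeq, GRCm38.p6), in the direction of transcription, for Cdkn3 from chr14:46760291-46760590, plus strand, for Cdc20 from chr4:118437294-118437593, minus strand, for Plk1 from chr7:122159185-122159484, plus strand and for Ccnb2 from chr9:70421505-70421804, minus strand. Capitals mark TTTGAA or its reverse complement TTCAAA and CCAAT or its reverse complement ATTGG.
Cdkn3: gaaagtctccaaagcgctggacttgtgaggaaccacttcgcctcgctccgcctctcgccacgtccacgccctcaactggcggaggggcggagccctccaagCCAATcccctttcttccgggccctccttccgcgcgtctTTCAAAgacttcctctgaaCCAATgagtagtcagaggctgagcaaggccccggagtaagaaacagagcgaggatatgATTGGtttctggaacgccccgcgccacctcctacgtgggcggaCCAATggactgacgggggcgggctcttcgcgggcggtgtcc
Cdc20: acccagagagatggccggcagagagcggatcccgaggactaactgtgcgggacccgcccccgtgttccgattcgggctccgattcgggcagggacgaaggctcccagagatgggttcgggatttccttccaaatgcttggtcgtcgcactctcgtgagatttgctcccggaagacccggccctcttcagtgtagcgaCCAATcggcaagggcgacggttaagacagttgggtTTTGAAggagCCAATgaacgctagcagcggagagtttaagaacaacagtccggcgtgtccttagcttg
Plk1: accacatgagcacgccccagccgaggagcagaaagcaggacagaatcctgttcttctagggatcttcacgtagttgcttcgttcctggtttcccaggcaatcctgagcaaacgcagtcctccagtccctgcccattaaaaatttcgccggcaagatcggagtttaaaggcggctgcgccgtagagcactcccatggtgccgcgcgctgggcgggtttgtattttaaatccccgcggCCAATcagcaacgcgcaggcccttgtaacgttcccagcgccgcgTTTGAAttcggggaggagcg
Ccnb2: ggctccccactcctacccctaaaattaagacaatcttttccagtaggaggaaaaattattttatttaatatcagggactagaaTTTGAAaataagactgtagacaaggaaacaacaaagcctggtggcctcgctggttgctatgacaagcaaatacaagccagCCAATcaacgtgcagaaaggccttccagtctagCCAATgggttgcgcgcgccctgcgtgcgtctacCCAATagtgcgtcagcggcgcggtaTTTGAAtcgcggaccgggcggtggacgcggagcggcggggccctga
Both elements occurred in 6 of the 7 matched mitotic genes that fell after rescaling (85.7%) and in 31 of 51 matched members of the whole list (60.8%), against 7.97% of all genes with a promoter. TTTGAA, with or without CCAAT, occurred in 68.6% of the matched list members and 20.2% of all genes, and CCAAT in 78.4% and 41.1%. Over all promoters, the shares were 17.9% for TTTGAA and 37.4% for CCAAT, and matches of the motifs can share their end letters. On the side of the p53 targets, 19.4% of the 31 matched members held TTTGAA and 67.7% CCAAT.

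The other 3 falls as deposited included 2 genes of receptors known from immune cells. Gpr65, a proton-sensing receptor of immune cells, was at 2.72, 3.13, 2.44 and 3.86 TPM in control and 0.933, 1.32, 0.936 and 1.68 TPM in RT 3 h mice (log2 fold change -1.05 ± 0.18 (SE), adjusted p = 0.0305). Tnfrsf4, which encodes the T cell co-stimulator OX40, was at 22.6, 20.1, 18.3 and 22.3 TPM and 15.7, 14.97, 12.5 and 13.4 TPM (log2 fold change -0.54 ± 0.10 (SE), adjusted p = 0.0331). Tnfrsf4 was above the summed TPM of the 10 T cell markers in every mouse. Those sums were 9.31 to 16.8 TPM in control and 3.29 to 8.69 TPM in RT 3 h mice. Which cells held the Tnfrsf4 RNA was not tested. In bulk tumor RNA, fewer cells of a type and less RNA per cell cannot be told apart. The third, 0610010K14Rik, was at 42.2, 28.3, 27.4 and 44.1 TPM and 16.6, 14.2, 13.4 and 16.7 TPM (log2 fold change -1.17 ± 0.21 (SE), adjusted p = 0.0375), and 46.6% of its exon bases are shared with Gm21988 on the same strand. Control mice 2 and 3 were lower than control mice 1 and 4 for this gene, but above every irradiated tumor.

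The summed markers of lymphocytes were lower in the same mice. The 10 T cell markers summed to 12.8, 10.1, 9.31 and 16.8 TPM in control mice and 6.33, 7.16, 3.29 and 8.69 TPM in RT 3 h mice, without overlap. All 6 tested members had log2 fold changes below 0, against 41.4% of all genes, with a median of -0.54. None passed the threshold, and with 0.228% of all genes past it, 0 in such a short list says little about it. The adhesion receptor Cd2 was at 3.02, 2.34, 1.72 and 3.77 TPM and 1.02, 1.32, 0.461 and 1.502 TPM (adjusted p = 0.094). No T cell marker was at 0 in all 8 mice. The 8 NK cell markers summed to 42.3, 50.4, 43.4 and 40.3 TPM in control mice and 35.3, 30.4, 27.97 and 26.8 TPM in RT 3 h mice, also without overlap, with a median of -0.68 over 5 tested. Gzmb, the serine protease granzyme B, was at 11.5, 13.9, 9.504 and 10.8 TPM and 7.24, 5.096, 2.54 and 5.24 TPM and fell after rescaling (log2 fold change -1.22 ± 0.26 (SE), adjusted p = 0.044). Prf1, the pore former perforin, was at 3.97, 4.505, 3.16 and 2.34 TPM and 1.78, 1.305, 0.966 and 1.45 TPM (adjusted p = 0.0915).

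Myeloid and stromal markers overlapped between the groups. The 13 macrophage markers summed to 981, 852, 622 and 956 TPM in control and 485, 726, 582 and 741 TPM in RT 3 h mice, where control mouse 3 was lower than 2 of the irradiated tumors. Their median was -0.40, with 0 past the threshold and 0 markers at 0 in all mice. With 0.228% of all genes past the threshold, 0 in marker lists of this size says little about them. The complement gene C1qb was at 164 ± 33.3 against 98.3 ± 19.6 TPM (adjusted p = 0.121). The 13 neutrophil markers summed to 22.4 to 31.9 TPM in control and 18.02 to 38.1 TPM in RT 3 h mice, with Camp and Elane at 0 in all 8. The median over the 8 tested was -0.32, and the granulocyte marker Ly6g lay at 1.14 ± 0.574 and 0.5602 ± 0.444 TPM. The 10 fibroblast markers, among them the collagens Col1a1 and Col3a1, had log2 fold changes above 0 in 10 of 10, against 58.6% of all genes. Their median was 0.27, with 0 past the threshold. The 10 endothelial markers had a median of 0.02. Red blood cell markers summed to 24.4 to 46.1 TPM in control and 17.7 to 25.6 TPM in RT 3 h mice, platelet markers to 43.3 to 67.9 and 31.7 to 49.6 TPM, and adipocyte markers to 10.8 to 22.9 and 3.62 to 11.6 TPM. Whether the change in leukocyte markers had a part in the falls of Gpr65, Tnfrsf4 and Gzmb was not tested.

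**Figure D4:**
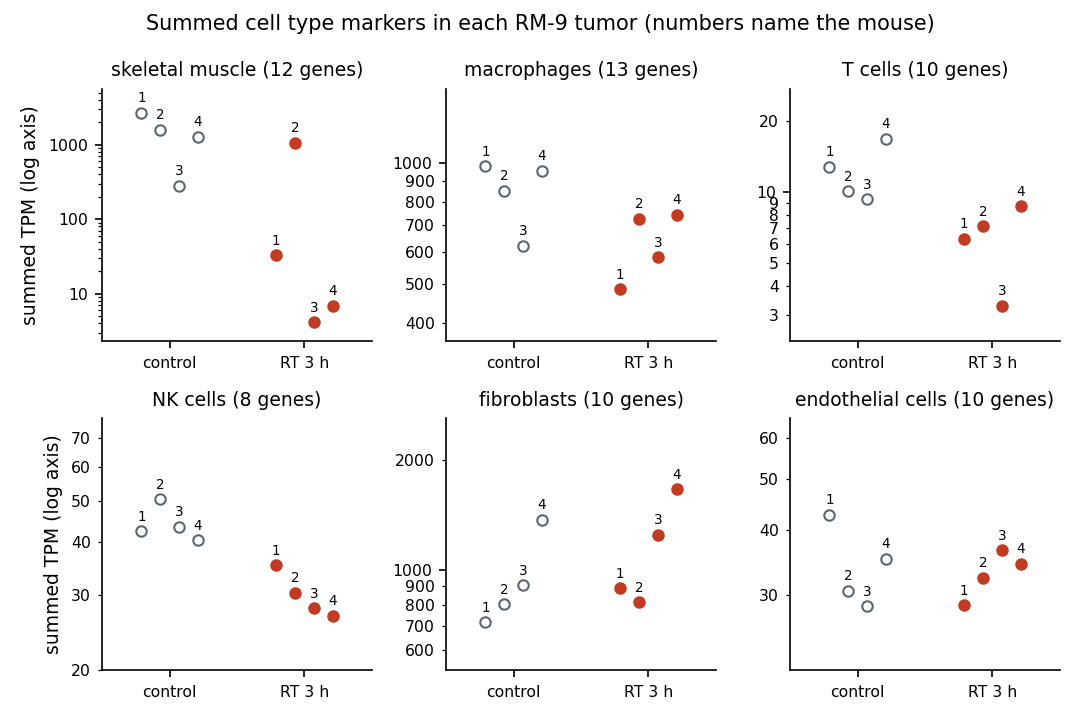
Summed TPM of the markers of 6 cell types in each RM-9 tumor, on log axes, with open points for control and filled points for RT 3 h mice and the mouse number beside each point. The sums of T cell and NK cell markers did not overlap between the groups, and RT mouse 2 held muscle markers at 1071 TPM while the other RT mice had 4.16 to 32.9 TPM.

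Genes that carry out repair and checkpoint signaling were counted in separate lists. Over all genes, 0.228% passed as deposited and 1.2% after rescaling, so 0 in a short list says little about it. All 4 RT mice lay above all 4 control mice in 9.88% of all genes and below them in 2.87%. Of 29 checkpoint genes, 0 passed as deposited (median 0.16). H2afx, the histone variant that is phosphorylated around DNA breaks, was at 60.5, 65.96, 52.9 and 73.5 TPM in control and 44.4, 40.6, 37.4 and 43.9 TPM in RT 3 h mice and fell after rescaling (log2 fold change -0.60 ± 0.10 (SE), adjusted p = 0.0154). Ppm1d, a phosphatase that switches off the damage response, was higher in all 4 RT mice (6.28 ± 0.677 against 8.59 ± 0.776 TPM, adjusted p = 0.108). Of 37 genes of homologous recombination and the Fanconi pathway, 0 passed as deposited, and Slx4, a scaffold of DNA nucleases, rose after rescaling (4.83 ± 0.764 against 8.003 ± 1.14 TPM, rescaled log2 fold change 0.70 ± 0.15 (SE), adjusted p = 0.0451). Of 20 end joining genes 0 passed, with a median of 0.02. In the list of 29 excision repair genes, Ercc5 rose, whereas another member, Ercc1, was lower in all 4 RT mice without passing (34.4 ± 4.38 against 26.1 ± 1.77 TPM, adjusted p = 0.108).

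Cell death genes were measured in separate lists. Over all genes, 0.228% passed as deposited and 0.985% rose after rescaling, and in 9.88% all 4 RT mice lay above all 4 control mice. Of 18 members of the BCL2 family, 0 passed as deposited and the median was 0.02. The BH3-only gene Bcl2l11, which encodes BIM, was at 4.81, 4.76, 5.405 and 3.73 TPM in control and 7.898, 6.91, 6.29 and 7.97 TPM in RT 3 h mice and rose after rescaling (log2 fold change 0.61 ± 0.13 (SE), adjusted p = 0.044). Pmaip1, which encodes the BH3-only protein NOXA, was at 26.5, 36.8, 33.6 and 23.8 TPM and 37.6, 55.5, 41.9 and 45.9 TPM (adjusted p = 0.105), a separation of groups that did not pass. Of 23 death receptor and caspase genes, 0 passed as deposited and 2 rose after rescaling, Apaf1 and the TRAIL receptor Tnfrsf10b (15.2 ± 0.998 against 20.7 ± 1.56 TPM, rescaled log2 fold change 0.44 ± 0.09 (SE), adjusted p = 0.0392).

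The study was concerned with CXCR2, the receptor that draws neutrophils to its chemokine ligands. None of the 6 genes of this axis passed at 3 h, as deposited or rescaled, and all overlapped between the groups. Cxcl1 was at 0.935, 0.994, 0.733 and 0.952 TPM in control and 2.97, 1.26, 0.314 and 0.804 TPM in RT 3 h mice, and Cxcl2 at 0.664, 0.852, 0.621 and 0.102 TPM and 2.89, 0.763, 0.377 and 0.366 TPM. RT mouse 1 was the highest of the 8 for both chemokines, while RT mouse 3 was below every control for Cxcl1. The log2 fold changes of Cxcl3, Cxcl5, Ppbp and the receptor Cxcr2 were 0.48, -0.17, 0.57 and -0.05, with adjusted p from 0.352 to 0.914 over the 6 genes. Their unadjusted p-values were all above 0.05. Neither 8 genes of the cGAS and AIM2 pathways (median -0.06), 16 of the IL-1 family (median 0.15) nor 25 of NF-kB feedback (median 0.12) held a gene past the threshold, as deposited or rescaled. With 0.228% of all genes past it as deposited and 1.2% after rescaling, 0 in such short lists says little about them. The cytokine gene Lif was higher in all 4 RT mice (6.17 ± 1.42 against 9.86 ± 1.53 TPM, adjusted p = 0.105). All 4 RT mice lay above all 4 control mice in 2 of the 25 NF-kB feedback genes, and in 9.88% of all genes.

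Genes of protein synthesis and respiration had small negative medians and 0 past the threshold. Of 76 ribosomal protein genes, 74 had log2 fold changes below 0, with a median of -0.16 and 9 lower at an unadjusted p under 0.05, against 41.4% and 6.1% of all genes. Of 80 nuclear-encoded subunits of oxidative phosphorylation, 73 were below 0, with a median of -0.17 and 19 lower at that level. With single mice left out, the medians were -0.20 to -0.11 and -0.24 to -0.13. On the level from coverage, where the median of all genes was 0.01, they were -0.21 and -0.23. Cox8b, a muscle form of cytochrome c oxidase, was at 12.3, 10.2, 2.44 and 5.37 TPM in control and 0, 4.82, 0 and 0 TPM in RT 3 h mice, with RT mouse 2 alone above 0 among the irradiated tumors, as for the muscle markers.

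Genes of the mitochondrial genome, named MT in the tables, held 49.2% ± 1.49 (SD, n = 4) of TPM in control and 49.2% ± 1.66 in RT 3 h mice (exact permutation p = 1). Most of it was 1 gene, mt-Nd4l, a subunit of complex I, with 37.7% ± 1.72 and 37.4% ± 1.39. These shares are those of the deposited unit, since the FPKM of mt-Nd4l was 42.4 times the value that its own coverage gives, in every library. Computed from coverage, the MT share was 13.2% ± 0.596 in control and 13.6% ± 0.809 in RT 3 h mice (exact permutation p = 0.457). Of 13 mitochondrial protein genes, mt-Nd1, mt-Nd2, mt-Nd4 and mt-Atp6 are listed at 0 in all 8 libraries, and 0 of the other 9 passed. The subunit mt-Nd5 was at 645, 634, 768 and 662 TPM in control and 899, 775, 844 and 926 TPM in RT 3 h mice (adjusted p = 0.228), and mt-Nd3 had the lowest log2 fold change of the 9, -0.31. When each library was rescaled to the same total without the MT genes, 151 genes were higher and 33 lower out of 15329 tested (0.985% and 0.215%, 1.2% in all). All 32 genes of the comparison as deposited were among them, and 152 passed only after rescaling, 123 higher and 29 lower. The median log2 fold change was 0.054. A level computed from the coverage column, divided by the depth of the library, gave 349 genes higher (2.55%) and 165 lower (1.21%, 3.76% in all) out of 13688, among them 29 of the 32, while Rb1, Pitpnc1 and Nav2 were not tested there. In the fit of the 2 groups alone 0 passed after rescaling as well (smallest adjusted p 0.0649), with 2724 genes higher and 1354 lower at an unadjusted p under 0.05.

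The largest changes among the genes that passed only after rescaling are given on the rescaled log2 scale. The rises were led by 1700007K13Rik (1.84), the RNA-binding protein Celf5 (1.38), the transcription factor Mybl1 (1.23), the actin bundler Espn (1.11), Gm9949 (1.09) and the kinase Cdc42bpg (1.06). The hyaluronidase Hyal1 (0.99), Zfp365 (0.92), the ephrin Efna3 (0.90) and the Polycomb subunit Phc3 (0.90) followed. This order was not firm, since over the alternatives run 1700007K13Rik lay between 1.41 and 2.70 and Celf5 between 0.92 and 2.66. With single mice left out, Celf5 was high enough to be tested in 6 of 8 fits. Of the 152 genes, 3 were not tested as deposited. Mybl1 was at 1.31, 1.46, 2.38 and 2.85 TPM as deposited in control and 4.83, 5.02, 2.87 and 7.67 TPM in RT 3 h mice, with the lowest irradiated tumor just above the highest control. The falls were led by the granzyme Gzmf, at 32.1, 45.7, 23.8 and 17.98 TPM in control and 7.41, 10.1, 7.29 and 5.86 TPM in RT 3 h mice (rescaled log2 fold change -1.87 ± 0.43 (SE), adjusted p = 0.0499). Ptprcap, which associates with the leukocyte phosphatase CD45, was at 2.91, 1.66, 1.75 and 3.203 TPM and 0.652, 0.939, 0.5301 and 1.17 TPM (rescaled log2 fold change -1.28 ± 0.26 (SE), adjusted p = 0.0384). AB124611 (-0.98), the hematopoietic tetraspanin Tspan32 (-0.72), Gm26737 (-0.65) and 1190002F15Rik (-0.64) also fell.

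The same contrast in MC-38 tumors gave 8 genes higher and 2 lower out of 15698 (0.051% and 0.0127%, 0.0637% in all), with a median of 0.19 over all genes. Of the 32 RM-9 genes, 30 had the same sign in MC-38 tumors, where 79.5% of all genes were above 0 and 20.4% below. At an unadjusted p under 0.05 there were 18 of the 32, against 19.9% of all genes, and Trp53inp1, Cdkn1a and Mdm2 passed the threshold there. Their log2 fold changes in MC-38 were 1.44, 0.80 and 1.11, beside 1.72, 0.96 and 1.27 in RM-9. The p53 list had a median of 0.41 in MC-38 and the mitosis list -0.22, beside 0.43 and -0.25 in RM-9. The medians of all genes were 0.19 in MC-38 and 0.056 in RM-9. The difference between the tumor models in the change at 3 h, tested as an interaction over all 31 libraries, passed for 0 of 15358 genes (smallest adjusted p 0.0663), while 189 genes at an unadjusted p under 0.05 changed more upwards in RM-9 (1.23%) and 1330 more downwards (8.66%, 9.89% in all). This balance moved with the scaling, to 452 and 1215 genes after rescaling, 731 and 890 under median-ratio scaling and 391 and 709 without MC-38 control mouse 1, whose MT share was 40.6% against 25.7 to 31.04% in the other MC-38 controls. After rescaling, 1 gene passed, Fdx1l, which was lower in RM-9 (0.00615%). In the p53 list, the median difference was 0.113, 0.19 after rescaling, 0.245 under median-ratio scaling and 0.171 without MC-38 control mouse 1. At an unadjusted p under 0.05, 2, 7, 8 and 6 of its 40 members were higher in RM-9. Over all genes these shares were 1.23%, 2.78%, 4.8% and 2.55%. After adjustment 0 members passed in each. Among the 32 genes, 9 reached that unadjusted level. The 32 were chosen by their change in RM-9, which is part of this difference. Their count can therefore not be set against the share of all genes. Notch3, with 0.94 in RM-9 and -0.21 in MC-38, had a difference of 1.16 ± 0.23 (SE, adjusted p = 0.19, the smallest of the 32). Under median-ratio scaling the difference passed for Notch3 and Tmem127, and for 2 genes outside the 32, Tmem43 and Sipa1. Plk2 had 0.81 and 0.00, with a difference of 0.81 ± 0.27 (SE, adjusted p = 0.369). 0610010K14Rik, at -1.17 and 0.31, differed by -1.48 ± 0.36 (SE, adjusted p = 0.282).

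**Figure D5:**
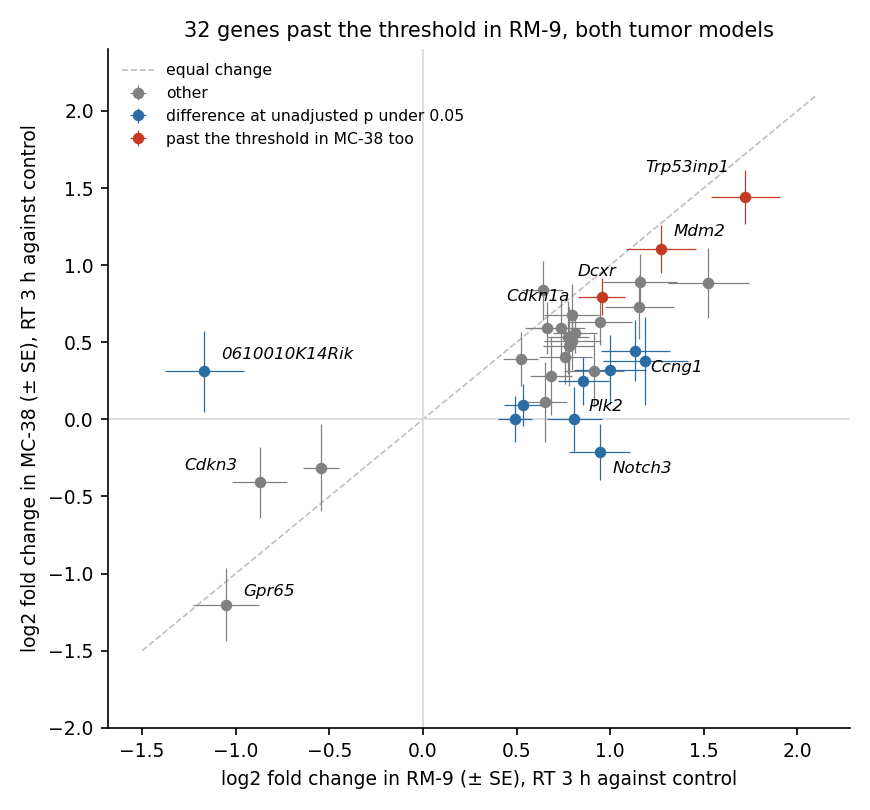
Log2 fold changes with standard errors of the 32 genes in RM-9 (horizontal axis) and MC-38 tumors (vertical axis), RT 3 h against control, with a dashed line of equal change. Red points passed the threshold in MC-38 too and blue points differed between the models at an unadjusted p under 0.05, 0 of them after adjustment. Notch3 and 0610010K14Rik lie on opposite sides of 0 in the models.

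Interferon-stimulated genes, which respond to interferons made on infection or after DNA sensing, had medians of opposite sign in the models. In RM-9 tumors 35 of 38 had log2 fold changes below 0, against 41.4% of all genes, with a median of -0.44 and 0 past the threshold. The median in MC-38 was 0.42, and the medians over all genes were 0.06 in RM-9 and 0.19 in MC-38. Ifit3 was at 14.8, 19.4, 9.39 and 17.01 TPM in RM-9 control mice and 7.38, 11.3, 3.19 and 8.31 TPM in RT 3 h mice, which overlapped, with RT mouse 3 the lowest. It had a log2 fold change of -1.03 in RM-9 (adjusted p = 0.162) and 0.53 in MC-38. The interaction was lower in RM-9 for 18 of the 38 at an unadjusted p under 0.05, against 8.66% of all genes, and for 0 after adjustment. It was lower for 14 after rescaling (7.47% of all genes), for 13 under median-ratio scaling (5.85%) and for 10 without MC-38 control mouse 1 (4.63%), and below 0 for at least 37 of the 38 in each. The RM-9 median moved between -0.59 and -0.08 as single mice were left out.

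The 12 h and 24 h groups were compared with the same 4 control mice, so their values are set beside those at 3 h without a test of likeness. Over all 14013 genes, 10 rose (0.0714%) and 1163 fell (8.3%, 8.37% in either direction) by 12 h, when the median was -0.19. The 12 h tumors had an MT share of 52.4 to 57.2% of TPM, above 47.8 to 50.5% in the controls, and after rescaling without MT genes 10 were higher and 69 lower of 15329, with a median of -0.06. At 24 h 0 passed in limma, with 277 genes (1.98%) above and 404 (2.88%) below the controls at an unadjusted p under 0.05. Cdkn1a had log2 fold changes of 0.96, 0.52 and 0.83 at 3, 12 and 24 h. Trp53inp1 had 1.72, 0.68 and 0.76, and Mdm2 1.27, 0.69 and 0.51. All 3 of these genes passed at 3 h and 12 h as deposited, whereas after rescaling only Cdkn1a passed at 12 h (adjusted p = 0.0478), beside 0.0583 for Trp53inp1 and 0.0524 for Mdm2. Rb1, at 0.86, 0.01 and 0.14, and Cep170b, at 0.77, 0.00 and 0.11, were near 0 at the later times as deposited. After rescaling Rb1 was at 0.14 and 0.18 and Cep170b at 0.15 and 0.14 at 12 and 24 h. Cdkn3 had -0.87, 0.02 and -0.37, and Gpr65 -1.05, -1.02 and -0.64, which passed at 12 h with and without rescaling. The p53 list had medians of 0.43, 0.02 and 0.18, the mitosis list -0.25, -0.02 and -0.23, and the T cell markers -0.54, -0.85 and -0.51. These are as deposited, where the medians of all genes were 0.056, -0.19 and -0.04.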

How the data were processed

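Messenger RNA of RM-9 and MC-38 tumors was prepared with a stranded TruSeq kit and read as 75-base single reads. For each of the 31 libraries the authors deposited 1 table of 46072 genes with TPM, FPKM and coverage (mean read depth per base, not scaled for depth). The submitters' processing notes name bcl2fastq 2.17 and build GRCm39. Gene coordinates in the tables nevertheless matched those of GENCODE M21, an annotation of GRCm38, in start or end for 91.1% of 45137 shared identifiers. The aligner, the counting program and its handling of strand and overlaps are not given in the sources used here. Deposited TPM was summed per gene identifier (7 to 16 genes per table had several rows). Depth was computed from deposited coverage and FPKM. Read counts are absent from these tables, so the precision given is the spread between mice, and low TPM values rest on few reads.

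Log2(TPM + 0.5) was fitted with limma 3.58.1 (R 4.3.3, lmFit and eBayes with trend) over 15 RM-9 libraries in 4 groups, 16 MC-38 libraries, or 31 libraries in 8 groups for the difference between models. Genes averaging 0.5 TPM or more were tested, and p-values were adjusted by Benjamini-Hochberg within a comparison, with a threshold of 0.05. Fold changes on this scale understate the change of low genes. Rescaled values are TPM brought to a total of 1000000 without genes on the reference MT. A level from coverage was fitted as an alternative chosen after the values had been seen, as were further alternatives. Genes named are all those past the threshold, up to 10 per direction past it only after rescaling, the 4 members of each of 41 lists (13 of them cell type markers) with the smallest p, the 13 mitochondrial protein genes and defining markers. Bax, Bbc3, Trp53, Trp53cor1, Ei24, Phlda3, Eda2r, Slc19a2, Cxcl1, Cxcr2, Ccnb2, Aurka, Cenpa, Ckap2, Cdk1, Aurkb, Fdx1l, Tmem43, Sipa1, Cdh1 and Col1a1 fall outside the rule and were chosen after their values were seen. The members and lists were chosen with earlier results of these data known. Some marker results are not reported here. Promoter sequences are those of RefSeq (GRCm38.p6). Figures and tables were made with Python 3.11.15, pandas 2.3.3, numpy 2.4.6 and matplotlib 3.10.9.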

Additional observations from a re-analysis of the deposited data

Results flagged for a closer look

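In 134 groups of 4 mice, the highest or lowest mouse was compared with the nearest of the other 3, and in 8 groups the gap, as a share of the whole range, was above the critical value of Dixon's test. Chance flags about 1 group in 20. Among named genes, Inhbb in control mouse 3 was at 4.46 TPM (others 2.97 to 3.18), Gm16001 in control mouse 3 at 0.996 TPM (others 0.514 to 0.573) and Espn in control mouse 4 at 0.842 TPM (others 0.386 to 0.420). Nav2 in RT mouse 1 was at 5.48 TPM, with 4.37 to 4.47 TPM in the other RT mice. All 4 genes were higher after RT, and the outlying control mice of Inhbb, Gm16001 and Espn remained below every RT mouse.

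The summed skeletal muscle markers of RT mouse 2, at 1071 TPM, stood apart from 4.16 to 32.9 TPM in the other RT mice. The skin keratinocyte markers of the same mouse summed to 5.57 TPM (others 3.71 to 3.94). The red blood cell markers of RT mouse 4 summed to 25.6 TPM (others 17.7 to 18.9). RT mouse 4 also had the deepest library, with 29.4 M reads against 26.2 to 26.6 M.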

How the results depend on the processing

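Of 28 genes higher and 4 lower as deposited, the counts were 7 and 1 without a filter on low values, 225 and 158 under median-ratio scaling (58.7% of calls higher, against 87.5%), 349 and 165 for the level from coverage (67.9%), 151 and 33 after rescaling, 1383 and 226 with weights per library, and 0 and 0 with only the 2 groups compared. With single mice left out they were 1 to 137 and 0 to 47. After rescaling, 151 genes were higher and 33 lower, and refits gave 51 and 11 without a filter, 224 and 54 at a mean of at least 5, 1351 and 329 with weights per library, 0 and 0 with only the 2 groups, and 10 to 1498 and 3 to 457 with single mice left out, highest without control mouse 3 and lowest without RT mouse 2 (higher) or control mouse 2 (lower). The labels do not say that mouse numbers mark a shared cage, day or batch. Deviations of same-numbered mice correlated at -0.0060, 0.21, 0.15 and 0.29, and control mice 1 and 3 correlated best with another number, so the numbers were not taken as pairs. With the replicate number as a block, 12 genes were higher and 1 lower as deposited and 41 and 6 after rescaling, and 11 of the 32 passed, namely Trp53inp1, Cdkn1a, Mdm2, Ercc5, Homer3, Abhd4, Sbk1, Fam212b, Cep170b, 9230114K14Rik and Cdkn3. The difference between tumor models passed for 0 genes as reported, 1 after rescaling (Fdx1l), 4 under median-ratio scaling and 0 to 2 with single mice left out (1 without RM-9 control mouse 3, RM-9 RT mouse 2 or MC-38 control mouse 2, and 2 without MC-38 control mouse 3 or RT mouse 1). The MT share differed by -0.055 percentage points, by 0.255 without mt-Nd4l, and by -0.874 to 0.377 with single mice left out. With single mice left out, Cxcl2 lay between -0.042 (without RT mouse 1) and 0.614 and Cxcl5 between -0.269 and 0.052 (without RT mouse 3), neither past the threshold. Why these values moved was not tested, apart from fewer mice or libraries in a fit. Also with single mice left out, Cxcl1 lay between -0.184 and 0.513, Cxcr2 between -0.131 and 0.129, Bax between -0.0212 and 0.141, Trp53 between -0.0718 and 0.044, Cdk1 between -0.0161 and 0.216, Aurkb between -0.0763 and 0.126 and Col1a1 between -0.00497 and 0.461. From coverage Cdk1 was -0.201 and Aurkb -0.0579, under median-ratio scaling Bax was -0.0206 and Aurkb -0.0459, and with weights per library Cxcr2 was 0.00623 and Trp53 0.0125. For single genes over all alternatives run, 3359 values kept direction and side of the threshold, 424 lost and 139 gained it, and 21 turned, all of them in the 9 genes just named. Without read counts, differences in genes near 0 TPM were not detectable at this depth beyond the spread between mice.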

Other observations

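Stress programs outside DNA damage were counted in separate lists. Over all genes, 0.228% passed as deposited and 1.2% after rescaling, so 0 in a list of this size says little about it. Of 32 genes of the integrated stress response, Sesn2 alone rose, and the median was 0.04 beside 0.056 over all genes. Of 22 genes of endoplasmic reticulum stress 0 passed (median 0.08), and Eif2ak3, the sensor kinase PERK, was at 3.52, 3.35, 4.31 and 3.45 TPM in control and 4.99, 4.73, 4.498 and 6.42 TPM in RT 3 h mice, without overlap (adjusted p = 0.115). Such a separation upwards was met by 1 of these 22 genes and by 9.88% of all genes. Of 24 heat shock chaperones and 30 genes of the hypoxia response and glycolysis, 0 passed, with medians of 0.05 and 0.13, and 0 hypoxia genes reached an unadjusted p under 0.05. Among 24 Nrf2 targets, Nfe2l2, which encodes Nrf2, rose after rescaling (52.3 ± 3.25 against 63.7 ± 4.49 TPM, rescaled log2 fold change 0.28 ± 0.06 (SE), adjusted p = 0.044).

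Of 39 immediate early genes 0 passed (median 0.07). Egr1 was at 18.99, 15.5, 20.2 and 13.6 TPM in control and 14.5, 11.8, 10.3 and 12.7 TPM in RT 3 h mice (adjusted p = 0.168). No gene passed among 15 clock genes (median -0.08), 12 glucocorticoid-inducible genes (-0.12), 21 sterol synthesis genes (-0.12) and 13 long noncoding RNAs (0.04), as deposited or rescaled. The imprinted noncoding RNA H19 was at 39.2, 18.98, 19.4 and 15.7 TPM in control and 4.09, 18.9, 5.29 and 4.79 TPM in RT 3 h mice, with RT mouse 2 at the level of the controls, as for the muscle markers.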
